A study of Penicillium oxalicum with 18 samples.

Results

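A set of 118 genes of the filamentous fungus Penicillium oxalicum was examined, out of 9277 in the table and 9241 with PDE locus tags. Members were at least 8 times higher in wild type on bran and cellulose than on glucose, on group means of FPKM + 1. Both Hap deletion strains also had to lie within 2-fold of wild type on bran and cellulose. FPKM divides the fragments of a gene by its length and by the mapped fragments of the library. Tags from 2 stretches of the numbering and 11 single tags were set aside, which removed 3 genes that would otherwise have qualified. Of the 477 remaining genes induced 8-fold in wild type, the members were 118, while 238 were below the 2-fold limit in both mutants, 90 were above it in both and 31 were mixed.

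The Hap complex is a heteromeric transcription factor of fungi that recognises the CCAAT motif of promoters. Hap3 and Hap5 pair through histone-like domains and Hap2 joins them, and DNA binding in related fungi needs the subunits together. Fungi such as P. oxalicum switch on secreted plant cell wall degrading enzymes when they grow on bran or cellulose, and shut many of them off on glucose through carbon catabolite repression. The study asked how the Hap complex acts on development and on cellulolytic gene expression.

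The strains were the wild type 114-2, a hap3 deletion strain (called the hap3 mutant here) and a hap5 deletion strain (the hap5 mutant). After 24 h of preculture on 2% glucose at 30 °C, mycelium of each strain was moved for 24 h to medium with 2% glucose, or to medium with 1% bran and 1% microcrystalline cellulose (called bran medium). Transcripts were measured by digital gene expression tag profiling, with 3 libraries in each of the 6 groups, 18 in all. The labels do not say whether replicates were separate cultures or whether each deletion strain is 1 transformant, so the spread that p-values rest on may be technical alone. The table pairs no tag with a gene name, so neither the deleted genes nor the roles of members could be looked up, and members are given by tag.

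Library totals ran from 966280 to 1202683 FPKM, with the highest in replicate 2 of the hap3 mutant on glucose, and 598 to 959 genes were listed at 0. Wild type on glucose listed the most genes at 0, with 959, 939 and 895. On glucose the hap3 mutant listed 774, 827 and 767 at 0, and the hap5 mutant 734, 702 and 645. Sequencing depth is unknown. The wild type response and the mutant levels on bran medium chose the members, so both are described without a test. Both mutants on glucose were not used by the choice and carry the tests below. Each log2 change compares means of log2(FPKM + 1), so that changes of low genes are understated, and has its standard error (SE) and Benjamini-Hochberg adjusted p from limma. A gene was called, and is said to have risen or fallen, at an adjusted p under 0.05 and a log2 change of at least 1.

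In wild type the members went from a median level of 3.003 FPKM on glucose to 59.4 FPKM on bran medium. The ratio between media (of FPKM + 1) had a median of 13.6 and reached 175, and 7 members exceeded 100. Levels on bran medium in wild type spanned 8.48 to 3522 FPKM. The hap3 mutant spanned 6.20 to 2370 FPKM and the hap5 mutant 4.56 to 2118 FPKM. The members together held 2.28% ± 0.0527 (SD, n = 3) of the FPKM total in wild type on that medium. They held 2.11% ± 0.0159 in the hap3 mutant and 1.93% ± 0.0612 in the hap5 mutant. Within the allowed 2-fold window the members leaned to the lower side, with 74 below wild type in the hap3 mutant (median ratio 0.892) and 84 in the hap5 mutant (median ratio 0.811).

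**Figure D1:**
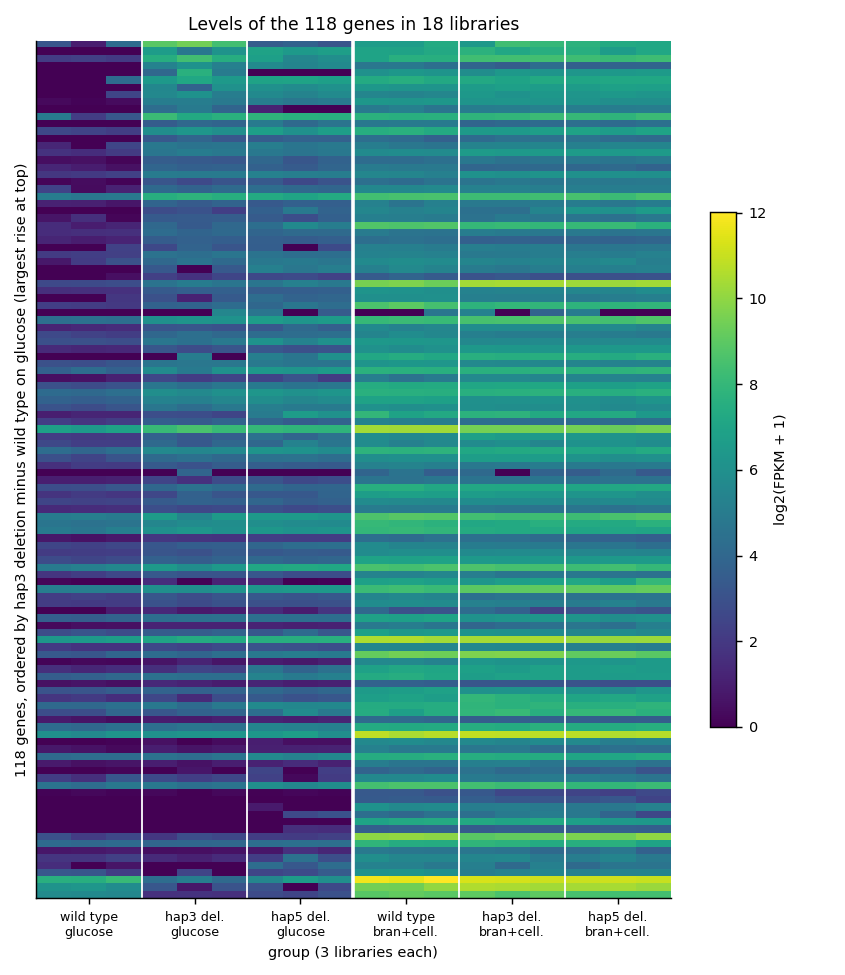
Levels of the 118 genes (rows) in 18 libraries (columns, 3 per group), as log2(FPKM + 1), ordered by the difference between hap3 mutant and wild type on glucose. The 9 bran medium libraries on the right look alike, as the choice of members requires, while on glucose most rows are brighter in both mutants than in wild type and the bottom rows are darker.

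The limits of the choice cut through a continuous range. Just inside the 8-fold limit lay PDE_07479 (8.04-fold) and PDE_05034 (8.05-fold), and just outside it PDE_09670 (7.99-fold) and PDE_06439 (7.93-fold). In the hap3 mutant PDE_09847 and PDE_09867 were just inside the lower limit, at 0.527 and 0.537 of wild type, and PDE_00646 and PDE_01164 just outside, at 0.498 and 0.496. At the upper limit PDE_04527 and PDE_03601 were kept at 1.95 and 1.94 times wild type, and PDE_01718 and PDE_03656 were left out at 2.04 and 2.14. For the hap5 mutant, PDE_00008 and PDE_06659 were kept at 0.516 and 0.524, and PDE_01281 and PDE_03006 were left out at 0.498 and 0.474. At its upper limit PDE_07654 and PDE_07052 were kept at 1.88 and 1.84, and PDE_03573 and PDE_00507 were left out at 2.01 and 2.18.

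The choice was repeated on 2 replicates of every group and the members were then read in the third. Of the 122, 121 and 130 genes found without replicate 1, 2 or 3, 86.9%, 91.7% and 70.8% were again at least 8 times higher on bran medium in the wild type libraries that had not been used. The mutants were again within 2-fold of wild type at 84.4%, 79.3% and 83.8% of them. Median ratios of the hap3 mutant to wild type in the unused libraries lay between 0.875 and 0.944, and those of the hap5 mutant between 0.799 and 0.861. Both conditions were met together in the unused libraries by 92 (75.4%), 91 (75.2%) and 79 (60.8%). These lists shared 109, 108 and 104 genes with the 118 members.

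Glucose levels differed widely between strains. On glucose the median member stood at 3.003 FPKM in wild type, 11.9 FPKM in the hap3 mutant and 15.4 FPKM in the hap5 mutant. The members held 0.1052%, 0.1002% and 0.125% of the total in the 3 wild type libraries. They held 0.344%, 0.343% and 0.322% in the hap3 mutant libraries. In the hap5 mutant libraries they held 0.374%, 0.345% and 0.367%, so every mutant library was above every wild type library. In bulk mycelium, a change in the share of cells of a type and a change in RNA per cell cannot be told apart. The members lay near wild type on bran medium, where they were chosen to, but not on glucose, so they are not called independent of Hap here.

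The glucose level was also taken as a percentage of the wild type level on bran medium (of FPKM + 1), which is a description. It had a median of 7.34% in wild type, where the 8-fold limit of the choice keeps it low. The median was 18.6% in the hap3 mutant (quartiles 8.37% and 34.5%) and 24.5% in the hap5 mutant (quartiles 11.8% and 42.1%). The highest percentages were 419% in the hap3 mutant and 197% in the hap5 mutant.

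In the hap3 mutant 70 of 118 members rose on glucose and 4 fell, where 15.3% of all 8681 genes tested rose and 8.74% fell. The median change was 1.35 for the members (quartiles 0.605 and 2.31) and 0.136 for all genes, and 104 members were above 0. For the hap5 mutant, 85 members rose and 3 fell, against 17.6% and 7% of all genes, with medians of 1.62 (quartiles 0.888 and 2.54) and 0.236, and 108 members were above 0. Both comparisons use the same wild type libraries. The choice kept members low in wild type on glucose, and 39 of 118 had a mean under 1 FPKM there. Such a member cannot fall by 1 in log2(FPKM + 1). The share that fell was thus limited in advance and is not read against all genes, here or in the fits below. All 118 members were tested, since the bran medium libraries by which they were chosen also carry them past the filter on low values. Fitted on the glucose libraries compared alone, 97 members were tested in the hap3 mutant, and 68 rose and 4 fell. Of all genes in that fit, 16% rose and 8.78% fell. In the hap5 mutant 101 were tested, and 80 rose and 3 fell, against 18.6% and 7.5% of all genes.

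The wild type glucose libraries also entered the choice of members, so low values there helped genes in. In a check added after seeing the data, members chosen without 1 replicate were tested against the unused wild type glucose library alone, whose spread was taken to be that of the other groups. In the hap3 mutant 54.9%, 57.0% and 52.3% of them rose when replicates 1, 2 and 3 were held out, against 15.2%, 16.2% and 13.7% of all genes. The hap5 mutant had 68.0%, 66.1% and 62.3% risen, against 17.7%, 18.4% and 15.6%. Falls numbered 5, 4 and 3 in the hap3 mutant (4.1%, 3.31% and 2.31%), where 8%, 7.62% and 8.18% of all genes fell. They numbered 3, 3 and 4 in the hap5 mutant (2.46%, 2.48% and 3.08%), where 6.33%, 6.2% and 7.01% of all genes fell. Genes chosen for low wild type levels on glucose have little room to fall by 1 on this scale. The choice thus limited these falls in advance, and nothing is read from their low share. Of the 118 members, 17 had only zeros in wild type on glucose. The other 101 still included members with a mean under 1 FPKM there, and 11 members had 0 in part of these libraries. Of the 101, 61 rose and 4 fell in the hap3 mutant (median 1.21), and 75 rose and 3 fell in the hap5 mutant (median 1.57). In the same fit 15.3% and 17.6% of all genes rose. Falls were limited in advance here too.

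Scaling moved these medians without turning them. Median-of-ratios scaling shifted the median of all genes by -0.13 in the hap3 mutant and -0.222 in the hap5 mutant, and left the members at 1.26 and 1.45. Quantile normalization left them at 0.996 and 1.09, with 56 and 64 members higher and 6 and 5 lower, against 11.1% and 11.1% of all genes higher and 10.2% and 9.38% lower.

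Other genes induced 8-fold in wild type were set beside the members. Of the 237 tested genes below the 2-fold limit in both mutants on bran medium, 71 rose in the hap3 mutant on glucose (30.0%, median 0.459) and 80 in the hap5 mutant (33.8%, median 0.571). Of the 90 above the limit in both, 63 (70%, median 1.82) and 76 (84.4%, median 2.71) rose. The members, with 59.3% and 72.0%, lay between the groups, and the differences between these groups of genes were not tested. A higher glucose level in the mutants is therefore not shown to be particular to the members.

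**Figure D2:**
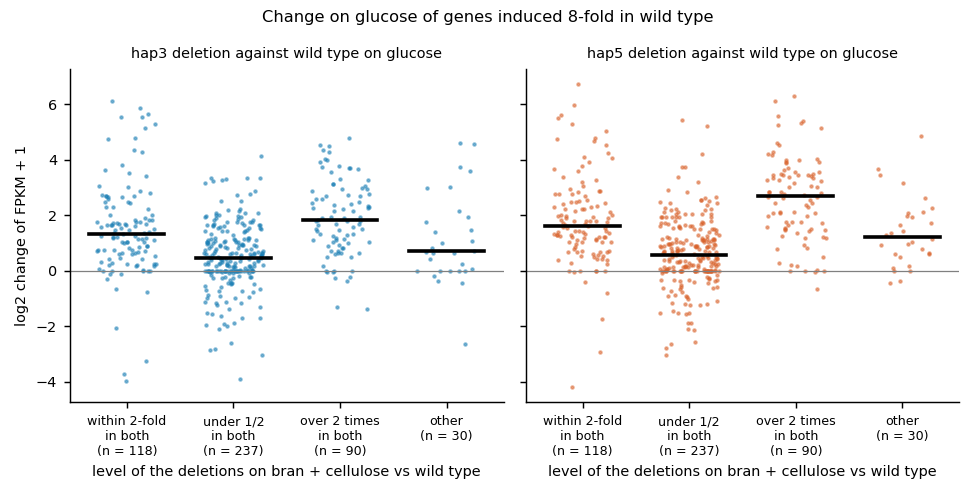
Change on glucose of each mutant against wild type (log2 of FPKM + 1) for genes induced 8-fold in wild type, grouped by their level in the mutants on bran medium. Points are genes and black bars are medians, which for the 118 members stand at 1.35 in the hap3 mutant and 1.62 in the hap5 mutant. All points share the 3 wild type glucose libraries.

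Several of the largest rises took members from 0 or near it toward their wild type level on bran medium, which some reached and others did not. PDE_02096 had a listed value of 0 in each wild type library on glucose. It stood at 98.65, 27.5 and 70.12 FPKM in the hap3 mutant (adjusted p = 1.04e-09) and at 122, 87.09 and 106.71 FPKM in the hap5 mutant (adjusted p = 2.11e-10). Its wild type level on bran medium was 132.9 ± 17.1 FPKM (SD, n = 3). No library of a mutant overlapped wild type on glucose. PDE_08926 was likewise listed at 0 in wild type on glucose, while the hap3 mutant had 46.65, 12.71 and 67.54 FPKM. In the hap5 mutant it was at 64.96, 55.32 and 65.52 FPKM (adjusted p = 2.73e-09), close to its 75.1 ± 4.35 FPKM in wild type on bran medium.

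PDE_04527 was at 3.36, 3.9 and 3.1 FPKM in wild type on glucose. It rose to 179.2, 335.5 and 179.94 FPKM in the hap3 mutant, or 5.64 in log2 units (SE 0.28, adjusted p = 2.14e-10). The hap5 mutant had 109.92, 44.01 and 60.71 FPKM, or 3.93 in log2 units (SE 0.28, adjusted p = 1.13e-08). The lowest mutant library, at 44.01 FPKM, was far above the highest of wild type, and the groups did not overlap. On bran medium PDE_04527 was at 165.5 ± 37.7, 324 ± 6.80 and 299.8 ± 14.2 FPKM in wild type, hap3 mutant and hap5 mutant.

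PDE_04185 stood higher on glucose in both mutants than in any strain on bran medium. It was listed at 0 in wild type on glucose and stood at 39.38, 67.81 and 36.02 FPKM in the hap3 mutant (adjusted p = 1.38e-11) and 52.24, 41.22 and 53.35 FPKM in the hap5 mutant (adjusted p = 1.08e-11). On bran medium the same strains had 13.9 ± 3.67 and 12.9 ± 1.12 FPKM, and wild type 24.3 ± 3.54 FPKM. Between the media it thus moved opposite to wild type, by -1.68 in log2 units (SE 0.21) in the hap3 mutant and -1.84 (SE 0.21) in the hap5 mutant. The choice held the bran medium side near wild type, so these 2 changes are given as a description.

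A few members, chosen after their values were seen, reached the wild type bran medium level on glucose in at least 1 mutant. On glucose 7 members in the hap3 mutant and 5 in the hap5 mutant were at or above that level, or 6 and 4 without PDE_03601, which had 0, 0 and 44.13 FPKM in the hap3 mutant and 24.06, 0 and 9.85 FPKM in the hap5 mutant. In the hap3 mutant PDE_00372 reached it through 1 library of 194.07 FPKM. Without setting any gene aside, 19 and 20 were at 50% of it or more. In wild type the highest was 12.4%, as the choice requires. PDE_01836 was at 28.59, 3.44 and 8.63 FPKM in wild type on glucose, 292.94, 156.74 and 195.99 FPKM in the hap3 mutant and 223.36, 199.49 and 187.91 FPKM in the hap5 mutant. Its 9 bran medium libraries, from 187.95 to 292.18 FPKM, lay inside the span of the mutants on glucose. PDE_05516 had 0, 0 and 4.65 FPKM in wild type on glucose and reached 50.1 ± 18.2 and 48.5 ± 6.81 FPKM in the mutants, against 43.2 ± 2.00 FPKM in wild type on bran medium.

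The members that fell on glucose included the most abundant of all. PDE_06715 was at 189.29, 183.31 and 271.51 FPKM in wild type on glucose. It fell to 18.37, 32.18 and 16.46 FPKM in the hap3 mutant, or -3.24 in log2 units (SE 0.26, adjusted p = 4.43e-08). It also fell in the hap5 mutant, to 44.17, 97.14 and 59.24 FPKM, or -1.72 in log2 units (SE 0.26, adjusted p = 3.87e-05). On bran medium it was at 3522 ± 559 FPKM in wild type, 2370 ± 160 FPKM in the hap3 mutant and 2118 ± 72.9 FPKM in the hap5 mutant. The groups on glucose did not overlap.

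PDE_05907 had the smallest SE of the members that fell. On glucose it was at 54.47, 50.21 and 46.41 FPKM in wild type, 2.33, 2.34 and 2.17 FPKM in the hap3 mutant and 5.72, 4.79 and 6.98 FPKM in the hap5 mutant. The log2 changes were -3.97 (SE 0.12, adjusted p = 1.61e-12) and -2.92 (SE 0.12, adjusted p = 2.52e-11). It stood at 511.5 ± 46.5 FPKM in wild type on bran medium, 477.7 ± 71.6 FPKM in the hap3 mutant and 347.3 ± 15.1 FPKM in the hap5 mutant. PDE_03530 was at 70.04, 78.53 and 56.05 FPKM in wild type on glucose. It fell to 8.63, 0.68 and 7.51 FPKM in the hap3 mutant and to 7.51, 0 and 5.15 FPKM in the hap5 mutant. The log2 changes were -3.73 (SE 0.68, adjusted p = 0.000208) and -4.20 (SE 0.68, adjusted p = 6.67e-05), with the lowest value in replicate 2 of both mutants. On bran medium PDE_03530 was higher in the mutants, at 1424 ± 112 and 1296 ± 97.7 FPKM, than the 813.9 ± 232 FPKM of wild type. The fourth member to fall in the hap3 mutant was PDE_00269, too low for the rule on named genes and named as part of a small count. Wild type had 8.66, 8.34 and 3.6 FPKM of it and the hap3 mutant 0, 4.6 and 0 FPKM (adjusted p = 0.00222), while the hap5 mutant had 4.77, 5.81 and 9.82 FPKM.

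**Figure D3:**
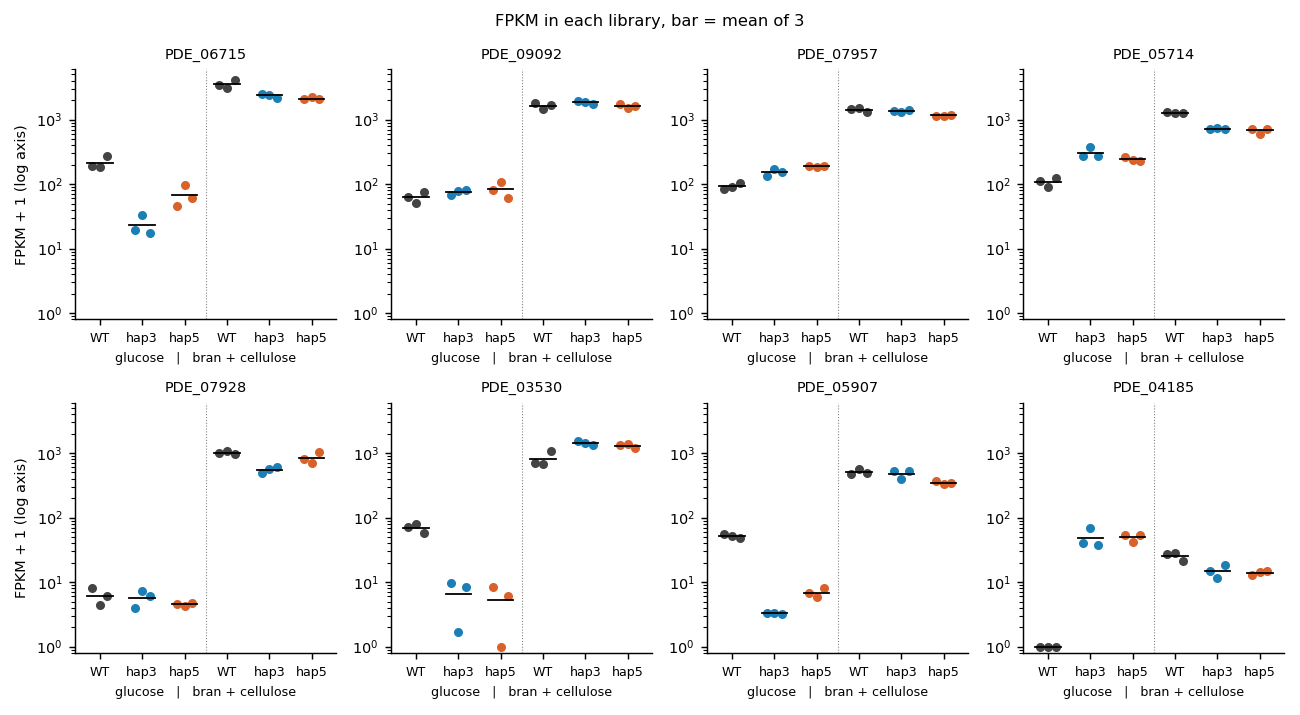
FPKM + 1 on a log axis in each library for the 6 members with the highest wild type level on bran medium, for PDE_05907, which fell on glucose in both mutants, and for PDE_04185, which was higher on glucose than on bran medium in both. Bars are means of 3 libraries. PDE_06715, PDE_03530 and PDE_05907 are lower in the mutants on glucose, while PDE_05714 is higher and PDE_09092 and PDE_07928 stay near wild type.

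Among the other abundant members, PDE_09092 was at 61.32, 50.02 and 74.37 FPKM in wild type on glucose, 65.74, 75.9 and 79.14 FPKM in the hap3 mutant and 81.4, 105.08 and 60.64 FPKM in the hap5 mutant. The groups overlapped, and the changes of 0.26 (SE 0.17, adjusted p = 0.2) and 0.39 (SE 0.17, adjusted p = 0.0584) were not called. PDE_07928, at 3.44 to 7.0 FPKM in wild type on glucose, was at 2.91 to 6.29 and 3.2 to 3.77 FPKM in the hap3 and hap5 mutants, again without a call. On bran medium PDE_07928 reached 1009 ± 57.5, 548.7 ± 53.8 and 846.1 ± 165 FPKM, which gave it the largest response of the 6 in wild type.

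PDE_05714 rose on glucose from 112.69, 88.49 and 121.34 FPKM to 272.12, 371.76 and 275.62 FPKM in the hap3 mutant, or 1.5 in log2 units (SE 0.13, adjusted p = 6.48e-08). In the hap5 mutant it rose to 258.46, 233.76 and 226.69 FPKM, or 1.16 in log2 units (SE 0.13, adjusted p = 1.07e-06). PDE_07957 was at 81.77, 90.22 and 103.56 FPKM in wild type on glucose and rose in the hap5 mutant to 186.91, 182.98 and 191.37 FPKM, or 1.02 in log2 units (SE 0.097, adjusted p = 2.64e-07). In the hap3 mutant, at 130.28, 168.62 and 155.16 FPKM, its change of 0.71 was under the minimum size for a call.

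The step from glucose to bran medium was smaller in the mutants for most members. The ratio between media had a median of 4.73 in the hap3 mutant and 3.54 in the hap5 mutant, against 13.6 in wild type. Only 39 and 26 members kept a ratio of 8 or more, and 20 did so in both mutants. The level on bran medium was fixed by the choice of members, so only the glucose side of these ratios was free, and wild type was chosen to be above 8. The carbon response was called higher for 94 members in the hap3 mutant and 88 in the hap5 mutant, where 18.6% and 13.8% of all genes were called. Since the choice put the bran medium levels high, these counts are given as a description, and nothing is read from their excess over all genes. The response was called lower for 1 member in each, PDE_04185, where 13.6% and 11.1% of all genes were called lower. The choice limited lower calls in advance, so nothing is read from their low share. Tested against each other, the response was larger in the hap5 mutant at 4 members and smaller at 18, where 1.5% and 3.2% of all genes were called, and 96 members were not called. These differences share their glucose libraries with the comparison of the mutants on glucose and in part repeat it. Differences on bran medium within the 2-fold window of the choice also enter them.

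PDE_08440 and PDE_04874 were the 2 members listed at 0 in all 9 glucose libraries. PDE_08440 was at 124.68, 153.53 and 163.72 FPKM on bran medium in wild type, 157.71, 129.83 and 157.64 FPKM in the hap3 mutant and 108.78, 86.81 and 85.01 FPKM in the hap5 mutant. PDE_04874 was lower, at 9.91 ± 0.446, 9.17 ± 1.64 and 6.63 ± 2.22 FPKM in the same groups. The hap5 mutant libraries of PDE_08440 lay below those of the other strains, inside the 2-fold window.

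The spread over the 9 bran medium libraries is given as a description, since it includes the differences between strain means that the choice limited. The range of log2(FPKM + 1) over these libraries was smallest for PDE_09671 (0.221), PDE_07393 (0.25) and PDE_09870 (0.301). PDE_07393 lay between 178.64 and 212.62 FPKM in all 9 libraries, and on glucose at 17.9 ± 2.01, 58.4 ± 7.87 and 73.2 ± 6.78 FPKM in wild type, hap3 mutant and hap5 mutant. The range was largest for PDE_03601 (5.32), PDE_08858 (4.59) and PDE_06883 (2.51). PDE_03601 had 0, 0 and 25.44 FPKM in wild type on bran medium, so that 1 library alone made it a member. In the mutants on that medium it was at 39.02, 0 and 13.12 FPKM and at 31.79, 0 and 0 FPKM. An exact 0 beside higher values can be a failed estimate, and PDE_03601 cannot be said to be induced.

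The mutants were also compared with each other on glucose. Their levels there had no part in the choice, but the SE and p pool the spread of all 18 libraries, among them those that chose the members. In the hap5 mutant 19 members were higher than in the hap3 mutant and 4 were lower, against 2.97% and 1.04% of all genes. The median difference was 0.23 for members and 0.095 for all genes, and 95 members were not called. Fitted on these 6 libraries alone, where 107 members were tested, 7 were higher and 3 lower, against 1.54% and 0.778% of all genes. After quantile normalization 11 were higher, against 2.23% of all genes. Across the 118 members the glucose levels of the mutants correlated at 0.803 (Pearson, log2 scale), and 94 members (79.7%) were within 2-fold. Across 8723 PDE genes with a group mean of at least 1 FPKM the correlation was 0.968, and 8198 (94%) were within 2-fold, a larger share than among the members. Genes are not replicates and these correlations carry no p.

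**Figure D4:**
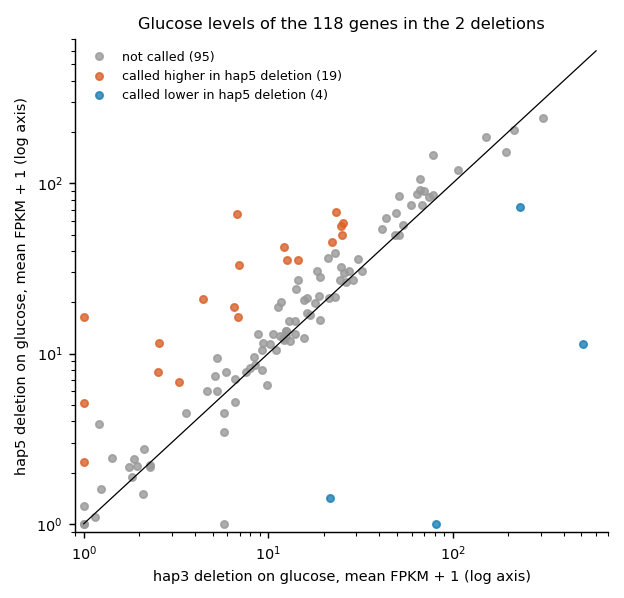
Mean FPKM + 1 (log axes) of the 118 members on glucose in the hap3 mutant (horizontal) and the hap5 mutant (vertical), with the line of equal levels. The 19 members called higher in the hap5 mutant lie above the line, and the 4 called lower lie below it.

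The members lower in the hap5 mutant were PDE_00372, PDE_03823, PDE_03206 and PDE_04527. PDE_00372 was listed at 0 in all wild type and all hap5 mutant libraries on glucose, while the hap3 mutant had 15.44, 194.07 and 30.97 FPKM (adjusted p = 1.51e-05 between mutants). The spread within the hap3 mutant was wide, and the highest value came from the library with the highest total, whose part in the value was not tested. Without that library the difference between the mutants was called too (adjusted p = 1.4e-08). The same library also stood apart at other members, in both directions. PDE_04527 was higher in it (335.5 FPKM, against 179.2 and 179.94 FPKM) and PDE_02096 lower (27.5 FPKM, against 98.65 and 70.12 FPKM). On bran medium PDE_00372 was at 73.1 ± 6.72, 72.1 ± 13.6 and 84.6 ± 7.67 FPKM in wild type, hap3 mutant and hap5 mutant. PDE_03206 had the same pattern at lower levels, with 18.43, 30.26 and 13.66 FPKM in the hap3 mutant on glucose, 1.23, 0 and 0 FPKM in the hap5 mutant (adjusted p = 5.06e-07) and 0 in wild type.

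PDE_03823 was at 8.19, 0.94 and 17.74 FPKM in wild type on glucose, 493.85, 698.82 and 327.57 FPKM in the hap3 mutant and 10.38, 12.83 and 7.97 FPKM in the hap5 mutant. Against wild type the hap3 mutant rose by 6.13 in log2 units (SE 0.64, adjusted p = 8.26e-07), and the hap5 mutant was not called (0.69, SE 0.64, adjusted p = 0.378). The hap3 mutant libraries on glucose were above all 9 of the bran medium libraries, which spanned 83.32 to 318.86 FPKM. The hap5 mutant was lower than the hap3 mutant by a log2 difference of -5.43 (SE 0.64, adjusted p = 4.99e-05). PDE_04527 was the fourth, with a difference of -1.72 (SE 0.28, adjusted p = 0.000723), and was added to complete the count. It was not called when only these 6 libraries were fitted (adjusted p = 0.0689).

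The members higher in the hap5 mutant were led by PDE_03824, next to PDE_03823 in the tag numbering. On glucose PDE_03824 was at 2, 0 and 0.62 FPKM in wild type, listed at 0 in all 3 hap3 mutant libraries and at 18.49, 8.81 and 18.93 FPKM in the hap5 mutant (adjusted p = 6.98e-06 between mutants). The tag neighbours thus went opposite ways between the mutants. PDE_07091 was at 6.41, 6.2 and 4.66 FPKM in the hap3 mutant and 30.86, 99.45 and 66.04 FPKM in the hap5 mutant, a log2 difference of 3.16 (SE 0.35, adjusted p = 2.9e-05). Its wild type libraries on glucose were at 0.99, 1.36 and 1.34 FPKM, below both. PDE_03710 was listed at 0 in wild type, at 8.85, 0 and 9.1 FPKM in the hap3 mutant and at 36.49, 26.41 and 33.97 FPKM in the hap5 mutant (adjusted p = 0.00402). When only these 6 libraries were fitted PDE_03710 was not called (adjusted p = 0.135), and without the hap3 mutant library at 0 its difference was 1.73, against 2.83 with it.

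**Figure D5:**
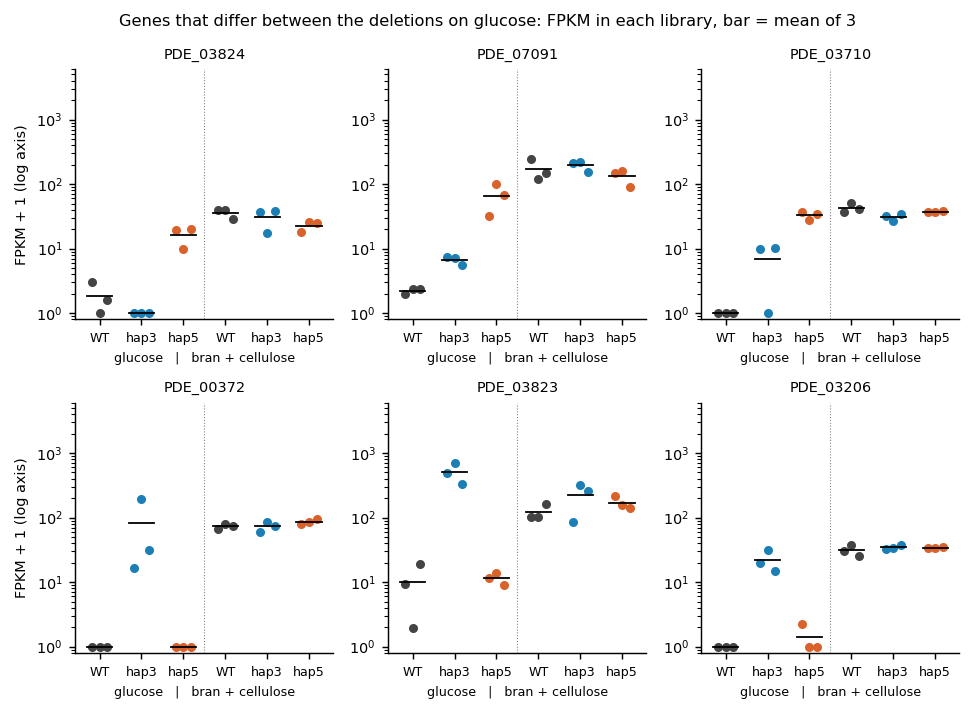
FPKM + 1 on a log axis in each library for 6 members called different between the mutants on glucose. They are the 3 each way with the largest differences among members that met the rule on named genes. PDE_04964, higher in the hap5 mutant by 3.58 in log2 units (SE 0.92), was also called but did not meet that rule. Bars are means of 3 libraries. PDE_03824, PDE_07091 and PDE_03710 are higher in the hap5 mutant and PDE_00372, PDE_03823 and PDE_03206 in the hap3 mutant, while on bran medium the group means lie within 2-fold of wild type, as the choice requires.

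Position was read from the tag numbers alone, since no coordinates were used. There were 6 pairs of members with consecutive tags and no run of 3, so 12 of 118 members had a member beside them. Of all 477 induced genes, 149 had an induced gene beside them, and 34 of the members did. The pairs are named after their values were seen. In PDE_04982 and PDE_04983 both genes were abundant, at 443.4 ± 39.5 and 278.6 ± 14.1 FPKM in wild type on bran medium, and both rose on glucose in both mutants. In the hap5 mutant PDE_04982 went from 31.8 ± 2.28 to 84.4 ± 7.43 FPKM on glucose and PDE_04983 from 19.4 ± 0.763 to 88.9 ± 12.9 FPKM.

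PDE_01041 and PDE_01042 rose by log2 values of 1.71 (SE 0.12, adjusted p = 8.88e-09) and 1.03 (SE 0.095, adjusted p = 2.11e-07) on glucose in the hap3 mutant. PDE_05713, beside PDE_05714, was at 2.18 ± 0.0889 FPKM in wild type on glucose and 11 ± 1.32 and 11.3 ± 0.578 FPKM in the hap3 and hap5 mutants. A stretch from PDE_06879 to PDE_06883 held 2 of the pairs. Within it PDE_06880 and PDE_06882 rose on glucose in both mutants, while PDE_06879 had listed values of 0 in wild type and the hap3 mutant, and of 0.8, 0 and 0 FPKM in the hap5 mutant. PDE_06879 nevertheless reached 67.74, 48.92 and 53.95 FPKM in wild type on bran medium. PDE_06883 was also listed at 0 in wild type and the hap3 mutant on glucose. In the hap5 mutant it had 0, 5.34 and 7.04 FPKM and was called higher than in wild type (adjusted p = 0.016). Neighbours in the numbering therefore shared the induction by which they were chosen, but not always their glucose level in the mutants.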

How the data were processed

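The values are FPKM, as deposited by the authors in 1 table, per the file headers. Aligner, quantifier, build, annotation and strand handling were not given, in the sources used here, and overlapping or near-identical genes are uncertain. The labels' protocols describe NlaIII and MmeI tag libraries, for which division by length alters levels between genes. The glucose columns were matched to samples by title, and the other medium by elimination. No identifier matched the reference table (0 of 9277), so no names, coordinates or sequences were used.

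Members and named genes were chosen with earlier results of these data known. The 8681 genes that reached 1 FPKM in 3 or more libraries were tested as log2(FPKM + 1), with 6 group means over all 18 libraries in limma 3.58.1 (R 4.3.3; eBayes with trend). P-values were Benjamini-Hochberg adjusted over all genes tested, and the fit was tested on simulated data. Named members were the 6 highest in wild type on bran medium, up to 3 each way with the largest called change per glucose comparison (a mean of at least 10 FPKM, replicates apart), 2 each side of every limit of the choice, runs of 3 or more tags (none found), the 3 steadiest and 3 least steady on bran medium, up to 3 at 0 in all 9 glucose libraries and up to 2 each way with the largest called difference in carbon response. Tag pairs, PDE_00269, PDE_01836 and PDE_05516 were added after their values were seen. A search of low values for read steps gathered at most 12.3% of genes within 0.02 log2 units, so depth was not recovered and no counting error is given. No 2 libraries were identical (0 pairs). Alternatives were other constants, filters, scalings and limits, a replicate block, fewer groups and leaving out each library. The held-out test and a count without members at 0 in part of a group were added after seeing the data.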

Additional observations from a re-analysis of the deposited data

Results flagged for a closer look

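The difference between the mutants in their response to bran medium was tested directly (limma, Benjamini-Hochberg adjusted). The response was larger in the hap5 mutant at 4 members and smaller at 18, where 1.5% and 3.2% of all genes were called in the same directions. These differences share their glucose libraries with the comparison of the mutants on glucose, so they in part repeat it and are not separate support for it. The bran medium side, held within 2-fold of wild type by the choice of members, also enters them. At PDE_04265 the difference in response was -1.34, beside a difference on glucose of 0.75 that was not called. The values below are differences in response, hap5 minus hap3 mutant, on the log2(FPKM + 1) scale. PDE_00372 had 5.79 (SE 0.81, adjusted p = 0.000452), a value that depends on the added constant, as the gene was listed at 0 in the hap5 mutant on glucose. PDE_03823 had 5.25 (SE 0.91, adjusted p = 0.00202), beside a difference on glucose of -5.43. PDE_03824 had -4.34 (SE 0.53, adjusted p = 0.000185) and was listed at 0 in the hap3 mutant on glucose. PDE_07091 had -3.74 (SE 0.49, adjusted p = 0.000325), beside 3.16 on glucose.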

How the results depend on the processing

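The number of members followed the limits of the choice: it was 187 with a constant of 0.1, 297 at 4-fold, 49 at 16-fold, 61 within 1.5-fold and 77 after quantile normalization (all 77 among the 118), against 121 to 130 without 1 replicate. For the 118 members, counts on glucose against wild type stayed within 1.5 times under the alternatives run, except for 5 lower members in the hap5 mutant after quantile normalization, against 3 in the main result and 3 to 4 when 1 library was left out. Members higher in the hap5 than in the hap3 mutant were 11 after quantile normalization and 7 of 107 when only the groups compared were fitted. Of all genes, 2.23% and 1.54% were called so in these settings, and the cause was not tested. With no minimum change they were 38. That setting also lets in more of all genes, whose share is not given here, so 38 is not read against the main count. Members with a smaller response in the hap5 mutant were 29 with no minimum change, and the same limit holds. Members called lower on bran medium than on glucose within the hap3 mutant were 1 to 2 when 1 library was left out. No named change turned its sign in any alternative run. Same-numbered libraries deviated together only weakly, at correlations from -0.122 to 0.097, and every library correlated best with its own number in 1 of 5 comparisons, the carbon response in the hap5 mutant. With the replicate block 70 and 85 members rose on glucose and 18 were higher in the hap5 than in the hap3 mutant. The carbon response was then called higher for 94 and 87 members. Shares of all genes with the block are not given here, so these counts show only how far the calls of members moved. Without members at 0 in part of a compared group, added after seeing the data, 63 rose in the hap3 mutant and 75 in the hap5 mutant on glucose. These were counted in the main fit, where 15.3% and 17.6% of all genes rose. Depth is unknown, and low values may rest on few reads.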

Other observations

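Genes beside the stretch of members from PDE_06879 to PDE_06883 were read after these members were found, and are given as values only. PDE_06881, within the stretch, was induced in wild type from 3.47 ± 2.80 to 31.5 ± 3.61 FPKM (SD, n = 3), but stood at 3.04 ± 0.756 and 3.39 ± 0.312 FPKM on bran medium in the hap3 and hap5 mutants. On glucose PDE_06881 was at 13.0033 ± 0.71 and 14.6 ± 3.59 FPKM in the mutants, so the order of the media was the reverse of wild type. In wild type PDE_06884, on the far side, went from 267.5 ± 1.62 FPKM on glucose to 3.09 ± 0.267 FPKM on bran medium. In the mutants on bran medium PDE_06884 was at 60.7 ± 5.29 and 94.2 ± 8.88 FPKM.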
